A study of Homo sapiens with 20 samples.

Results

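The sites of open chromatin in cells that expressed an activated form of TAZ, TAZ4SA, were compared with those in cells that carried the empty vector (EV). The 2 peak lists held 152702 TAZ4SA peaks and 171102 EV peaks, 323804 of the 1407450 peaks in the 7 lists of the study. A peak was shared if it overlapped a peak of the other list by 1 bp or more. A TAZ4SA peak was called gained if the −log10 p at its summit was 6 or more and no EV peak lay within 1 kb of it, and an EV peak was called lost by the same rule with the lists exchanged. There were 1870 gained peaks and 2123 lost peaks, and 100944 TAZ4SA peaks and 86325 EV peaks were shared. Gained and lost are names for these sets of peaks and do not stand for a tested change.

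The cells were SW872, an established human liposarcoma line, transduced by retrovirus with a pBabeNeo vector and kept as pooled stable lines under G418, so that EV and TAZ4SA cells shared the backbone and the drug. EV cells carried the backbone without an insert. TAZ4SA cells carried Flag-tagged, full-length human TAZ with alanine in place of 4 serines that the LATS kinases phosphorylate. Each of these groups had 3 libraries, and the third library of EV is titled as a redo, with no further word on what was repeated. The other 5 lists, used here as a reference, came from 14 libraries of the same line: 3 each with YAP5SA (an activated form of YAP), full-length CAMTA1, TAZ-CAMTA1 and YAP-TFE3, the last 2 being fusion proteins, and 2 with full-length TFE3. The titles of the YAP-TFE3 libraries read Yap5SA-TFE3, whereas the study calls the fusion YAP-TFE3, the name used here, and whether both names mean 1 construct is not stated. SW872 is a model of forced expression in a liposarcoma cell, whereas the fusions are known from epithelioid hemangioendothelioma, a vascular sarcoma, and peak lists do not measure the level of each protein.

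TAZ and its paralog YAP are the transcriptional coactivators at the end of the Hippo pathway. When the pathway is active, the LATS kinases phosphorylate them, which holds them in the cytoplasm and marks them for degradation. Without these phosphates they enter the nucleus and, having no DNA-binding domain of their own, bind DNA through the TEAD transcription factors, often at enhancers that also bind AP-1. In ATAC-seq a transposase cuts and tags DNA that is not wrapped in nucleosomes, so that peaks of fragments mark open promoters, enhancers and insulators.

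Each vector had 1 peak list, so there was no spread between replicates to set a difference against, and no test was run. All values below describe 2 lists, and the 95% Wilson intervals cover counting error over peaks only. The area of a peak is the area under the caller's −log10 p curve over its length, and neither the area nor the summit value was scaled between lists. The reads behind each list are unknown. The TAZ4SA list was the shortest of the 7, whose lengths ran up to 236893 peaks, and it covered 52834428 bp against 70596855 bp in the EV list. The part that depth, the repeated EV library or the way libraries were combined had in any difference was not tested. A site open in fewer cells and a site less open in each cell cannot be told apart in such lists.

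Strong peaks mostly overlapped a peak of the other list, and weak peaks did so less often. Of the TAZ4SA peaks, 66.1% (95% interval 65.9 to 66.3) overlapped an EV peak, another 21050 had an EV peak within 1 kb without overlap, 28838 had none within 1 kb but a summit under 6, and 1870 were gained. Of the EV peaks, 50.5% (50.2 to 50.7) overlapped a TAZ4SA peak, 40106 had one within 1 kb, 42548 had none and a summit under 6, and 2123 were lost. Among peaks with a summit of 6 or more, called strong below, 94.3% in TAZ4SA and 92.9% in EV overlapped the other list, 4.20% of 44497 TAZ4SA peaks were gained and 4.53% of 46845 EV peaks were lost. A further 659 strong TAZ4SA peaks and 1219 strong EV peaks had no overlap but a peak of the other list within 1 kb and entered no set.

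The sets sat at the lower end of the strong peaks. The share gained fell with the summit value, from 9.10% (8.62 to 9.60) of TAZ4SA peaks with a summit of 6 to 7, to 5.17% at 7 to 8, 2.16% at 8 to 10 and 0.384% at 10 to 12, and 4 of 6524 peaks at 12 or more. The share lost fell more steeply, from 11.9% (11.4 to 12.5) at 6 to 7 to 5.16% at 7 to 8, 1.05% at 8 to 10 and 0.0897% at 10 to 12, and 0 of 8357 at 12 or more. Lost peaks outnumbered gained ones at 6 to 7, by 1581 to 1193, and were level with them at 7 to 8, with 429 against 424. With a summit of 8 or more the order turned, with 253 gained against 113 lost. The gained peak nearest to the threshold had a summit of 6.0027 and the nearest one left out 5.9998, with 178 peaks at 6 to 6.1 and 158 at 5.9 to 6. For lost peaks the values were 6.0018 and 5.9992, with 241 and 278 peaks. The nearest EV peak lay 1002 bp from the closest gained peak and 998 bp from the closest strong TAZ4SA peak left out, and the distances were 1002 and 1000 bp on the lost side.

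Gained peaks were small and narrow, and lost peaks a little wider. The median area was 399 in gained peaks (quartiles 281 and 601) and 412 in lost peaks (299 and 627), against 1005 in strong shared TAZ4SA peaks and 1408 in strong shared EV peaks. The median width was 324 bp gained, 360 bp lost, 657 bp in strong shared TAZ4SA peaks and 885 bp in strong shared EV peaks. The rule sets the summit values, so part of this follows from the band of summits the sets came from. At a summit of 6 to 7, the median area was 315 in gained peaks against 348 in shared TAZ4SA peaks, and 358 in lost peaks against 453 in shared EV peaks. The widths in this band were 275 against 330 bp on the TAZ4SA side and 326 against 411 bp on the EV side. Broad peaks were rare in both sets: 24 gained (1.28%) and 83 lost (3.91%) peaks reached 1000 bp, against 30.04% and 44.1% of the strong shared peaks of the 2 lists, and 1 lost peak and 0 gained peaks reached 2000 bp, so that counting error allows a gained share of up to 0.205%.

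**Figure D1:**
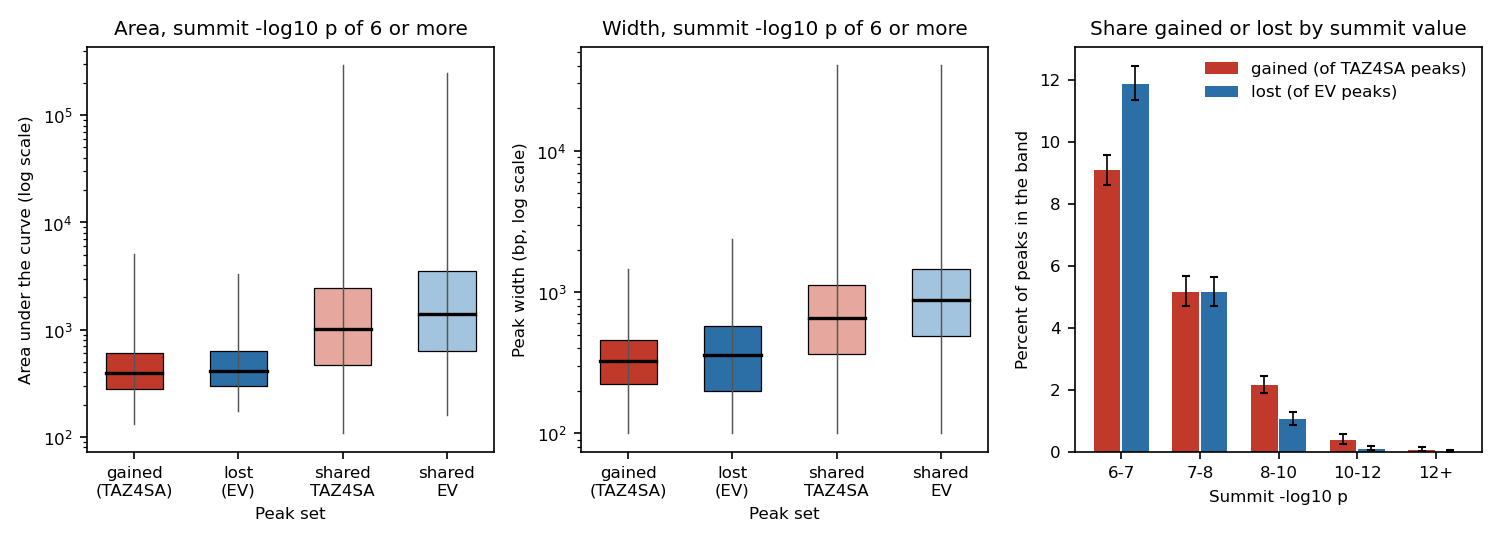
Left and middle, area and width (bp, both on log axes) of gained, lost and strong shared peaks, with the median as a bar, the quartiles as a box and the range as a line; right, percent of TAZ4SA peaks gained and of EV peaks lost by band of summit −log10 p, with 95% Wilson intervals. Median widths of 324 and 360 bp in gained and lost peaks lie below the 657 and 885 bp of shared peaks, and both shares fall as the summit rises.

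Where both lists had a strong peak, the EV peak was usually the larger and wider. Peaks of the lists that overlapped were merged into 81062 shared sites. TAZ4SA had more peaks than EV at 14473 of them and EV more than TAZ4SA at 3704. The shares and widths per peak above thus depend in part on how sites were split into peaks. Of the 81062 sites, 31655 had a summit of 6 or more in both lists. At these the median log2 ratio of the TAZ4SA to the EV area was −0.53 (quartiles −0.93 and −0.14). The EV area was the higher at 80.2% of them and the EV peaks were the wider at 79.6%, with median widths of 908 bp in TAZ4SA and 1140 bp in EV. Median summits differed less, at 9.08 in TAZ4SA and 9.75 in EV. An area 4-fold or more higher was found at 110 sites in TAZ4SA and at 706 in EV. Across sites, which are not independent replicates, Pearson's r of the log2 areas was 0.865 and Spearman's rho 0.867. At the 5 equal groups of sites ordered by the sum of both areas, the median log2 ratio lay between −0.43 and −0.66, the lowest in the middle group, so the EV area was the higher by the median in each group.

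**Figure D2:**
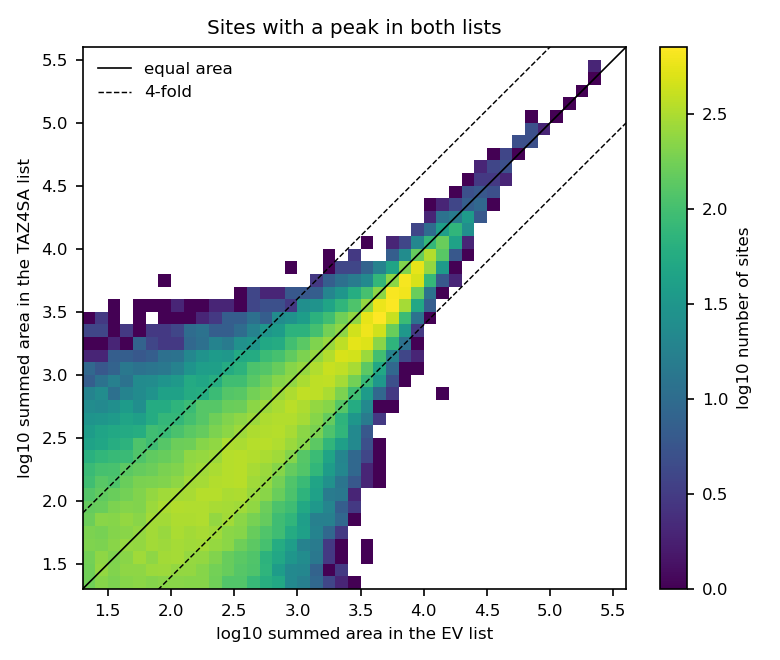
Area summed over each of the 81062 shared sites in the EV list (horizontal, log10) and the TAZ4SA list (vertical, log10), with colour for the log10 number of sites, a solid line at equal area and dashed lines at a 4-fold difference. Most sites lie below the line of equal area, on the EV side, with a median log2 ratio of −0.53 at the 31655 sites with a summit of 6 or more in both lists.

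The 8 gained peaks of largest area all had a YAP5SA counterpart, as 99.4% of all strong TAZ4SA peaks did. At 7 of the 8 its area was larger than in TAZ4SA, as it was at 91.8% of strong shared TAZ4SA peaks. The largest lay at chr11:131211508-131212603 (hg19, all positions counted from 1) with an area of 5036 in TAZ4SA. Its area was 5031 in YAP5SA, 1198 in CAMTA1, 227 in TFE3 and 45.8 in YAP-TFE3, and there was no peak in TAZ-CAMTA1. The second, at chr8:118822997-118824180, had an area of 3967 in TAZ4SA, 6639 in YAP5SA and 89.1 in CAMTA1 and no peak in the other 3 lists. Both sites were high in the lists of the activated coactivators TAZ4SA and YAP5SA and lower or absent elsewhere. The third, at chr9:2809686-2810836, had 3723 in TAZ4SA, 5017 in YAP5SA, 614 in CAMTA1 and between 53.1 and 116 in the remaining 3. The fourth, at chr18:76610772-76612225, had 3338 in TAZ4SA and 4043 in YAP5SA, and no peak in any other list. The fifth, at chr7:48466275-48467261, had the highest summit of all gained peaks, 14.0, with areas of 3210 in TAZ4SA, 5572 in YAP5SA, 1751 in CAMTA1, 703 in YAP-TFE3, 360 in TFE3 and none in TAZ-CAMTA1. Its nearest EV peak was 1416 bp away, whereas for the seventh it was 58249 bp away. The sixth to eighth, at chr1:59593914-59595013, chr12:118874238-118875274 and chr15:97310728-97311894, had TAZ4SA areas of 3048, 3012 and 2826 and YAP5SA areas of 5434, 4040 and 5485. At these 3 sites every list but EV had a peak.

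The 8 lost peaks of largest area were present in all 5 reference lists, as 98.2% of all strong EV peaks were. The largest lay at chr7:130280484-130281686, with an area of 3283 in EV, 4994 in TAZ-CAMTA1, 2349 in TFE3, 2245 in CAMTA1, 2172 in YAP-TFE3 and 76.2 in YAP5SA. The sixth, at chr1:232419304-232420418, had the highest summit of all lost peaks, 11.2, with 2613 in EV, 4524 in TAZ-CAMTA1, 3388 in CAMTA1, 1857 in TFE3, 1335 in YAP-TFE3 and 210 in YAP5SA. The third, at chr1:182668280-182669377, had 2859 in EV, 4430 in TAZ-CAMTA1 and 149 in YAP5SA. These 3 sites were low in YAP5SA, while their absence in TAZ4SA was set by the rule. The fifth, at chr7:99834762-99836027, differed in that its area in YAP5SA, 2369, was close to the 2614 in EV, and the eighth, at chr14:104643455-104645845 and the widest lost peak at 2391 bp, had 2046 in YAP5SA and 2389 in EV. The other 3, at chr15:77898449-77900268, chr20:48112818-48114197 and chr20:5622707-5623773, had EV areas of 2909, 2855 and 2431 and YAP5SA areas of 1034, 1170 and 657. TAZ-CAMTA1 had the highest area of the 7 lists at all 8 lost sites. At strong shared EV peaks its area also exceeded the EV area in 96.8% of cases. The median areas there were 4045 in TAZ-CAMTA1, 4127 in YAP-TFE3 and 1408 in EV. Genes were not assigned to the named peaks, since no annotation of this build was used here.

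**Figure D3:**
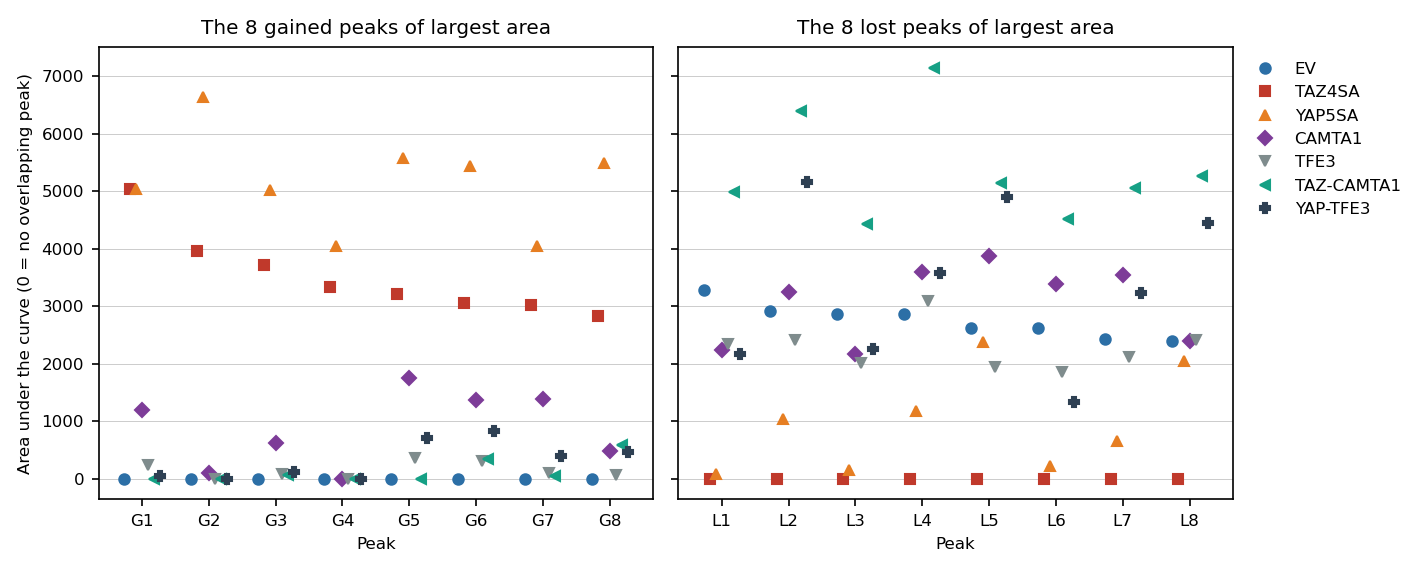
Area of the 8 gained and the 8 lost peaks of largest area in each of the 7 lists (1 symbol per list, numbered G1 to G8 and L1 to L8 by falling area), with no overlapping peak drawn as 0. The gained sites are highest in YAP5SA except the first, where TAZ4SA has 5036 and YAP5SA 5031. The lost sites are highest in TAZ-CAMTA1 at all 8. The YAP5SA area also exceeded that of TAZ4SA at 91.8% of strong shared TAZ4SA peaks. The median YAP5SA area there, 2842, was below the 3922 in CAMTA1, 4488 in TAZ-CAMTA1 and 4746 in YAP-TFE3. The TAZ-CAMTA1 area exceeded that of EV at 96.8% of strong shared EV peaks. Its median there was 4045, against 4127 in YAP-TFE3.

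Over all gained peaks, the YAP5SA list held a counterpart most often. An overlapping YAP5SA peak was found for 1769 of the 1870 (94.6%), CAMTA1 for 78.5%, YAP-TFE3 for 70.5%, TAZ-CAMTA1 for 50.7% and TFE3 for 48.5%. Among all strong TAZ4SA peaks these shares were 99.4, 98.4, 97.5, 96.4 and 95.3%, so every share of the gained peaks was below its background and YAP5SA was the nearest to it. The YAP5SA list was not the longest. With all lists held to equal numbers of peaks, the rule was applied anew and 2117 peaks were gained. Of these, 91.5% had a counterpart in YAP5SA, 70.3% in CAMTA1, 60.6% in YAP-TFE3, 51.1% in TFE3 and 38.0% in TAZ-CAMTA1. The part that list length had in the shares was not tested. A strong counterpart was present for 73.5% in YAP5SA, 31.6% in CAMTA1, 29.1% in YAP-TFE3, 8.66% in TAZ-CAMTA1 and 2.09% in TFE3. The same share over all strong TAZ4SA peaks is not given here. The median area, with absence as 0, was 802 in YAP5SA against 399 in TAZ4SA itself, 210 in CAMTA1, 150 in YAP-TFE3, 22.97 in TAZ-CAMTA1 and 0 in TFE3. At strong shared TAZ4SA peaks it was 2842 in YAP5SA, 1005 in TAZ4SA, 3922 in CAMTA1, 4746 in YAP-TFE3, 4488 in TAZ-CAMTA1 and 1942 in TFE3. YAP5SA exceeded the TAZ4SA area at 71.1% of gained peaks, which was less than the 91.8% at strong shared TAZ4SA peaks, while TFE3 did so at 2.78% against 72.7% and TAZ-CAMTA1 at 9.52% against 89.8%. Of the gained peaks, 688 (36.8%, background 94.1%) had a peak in all 5 reference lists, 268 (14.3%, background 0.939%) in 1 list, which was YAP5SA for 243 of them, and 32 (1.71%, background 0.155%) in none. A YAP5SA counterpart was also common where another list lacked the peak: of the strong TAZ4SA peaks without a peak within 1 kb in CAMTA1, TFE3, TAZ-CAMTA1 or YAP-TFE3, 84.7, 90.7, 91.2 and 89.2% overlapped a YAP5SA peak.

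Lost peaks had a counterpart in the YAP5SA list less often than strong EV peaks at large, and in the other 4 lists their share was within 1 percentage point of that background. The shares were 99.95% in TAZ-CAMTA1 (2122 of 2123), 99.3% in CAMTA1, 99.0% in YAP-TFE3, 98.9% in TFE3 and 89.0% in YAP5SA. Among all strong EV peaks they were 99.83, 99.88, 99.75, 99.30 and 98.95% in the same order. In all 5 lists together 1863 (87.8%, background 98.2%) had a peak, and 210 had one in all but YAP5SA. A strong counterpart was present for 93.8% in TAZ-CAMTA1, 82.4% in YAP-TFE3, 78.4% in CAMTA1, 48.1% in TFE3 and 37.1% in YAP5SA. The same share over all strong EV peaks is not given here. The median area was 1251 in TAZ-CAMTA1 against 412 in EV itself, 851 in YAP-TFE3, 720 in CAMTA1, 417 in TFE3 and 252 in YAP5SA. At strong shared EV peaks it was 4045 in TAZ-CAMTA1, 1408 in EV, 4127 in YAP-TFE3, 3430 in CAMTA1, 1707 in TFE3 and 2301 in YAP5SA. The YAP5SA area exceeded the EV area at 27.1% of lost peaks and at 72.9% of strong shared EV peaks, whereas for TAZ-CAMTA1 the shares were 96.0 and 96.8%.

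**Figure D4:**
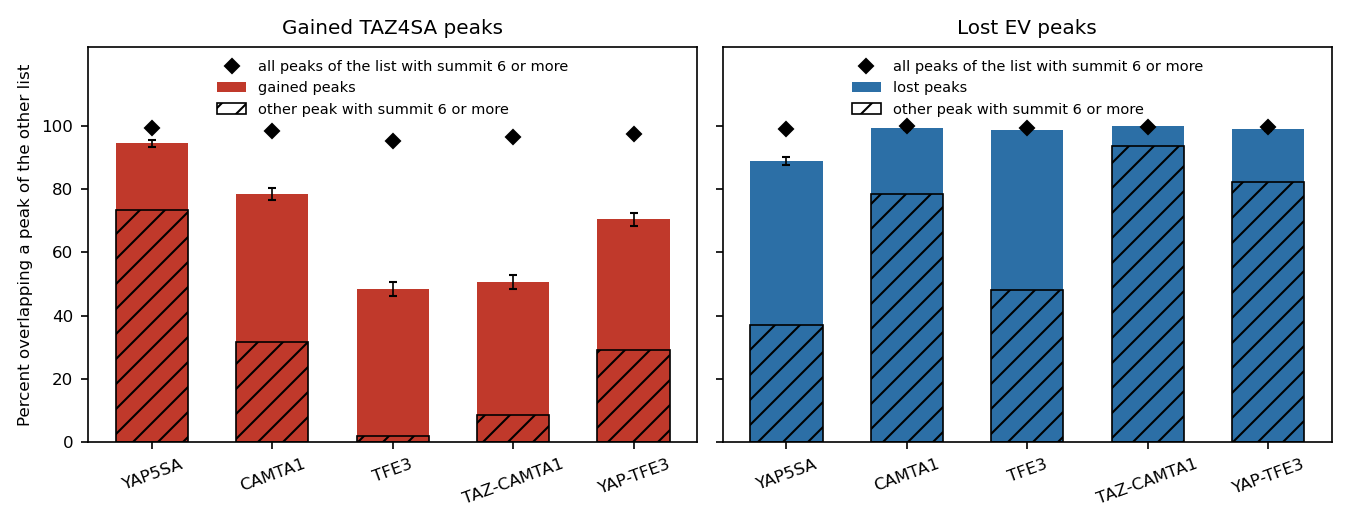
Percent of the gained (left) and the lost (right) peaks that overlap a peak in each of the 5 reference lists, with 95% Wilson intervals, the part whose counterpart has a summit of 6 or more (hatched), and the same percent over all strong peaks of the list they came from (diamonds). YAP5SA has the highest share of gained peaks, 94.6%, and the lowest share of lost peaks, 89.0%.

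The same rule was applied to the other pairs of lists, which share the EV or the TAZ4SA list and are not independent of each other. Of the 46845 strong EV peaks, 28 (0.0598%) had no CAMTA1 peak within 1 kb, 49 (0.105%) no TAZ-CAMTA1 peak, 77 (0.164%) no YAP-TFE3 peak, 203 (0.433%) no TFE3 peak and 309 (0.660%) no YAP5SA peak, against the 2123 (4.53%) without a TAZ4SA peak. Strong peaks absent from TAZ4SA were also frequent in the other lists, with 2117 in TFE3 (4.46%), 5755 in YAP5SA (8.29%), 8907 in CAMTA1 (12.1%), 13006 in TAZ-CAMTA1 (17.4%) and 13340 in YAP-TFE3 (16.6%). The EV value was thus near the TFE3 value and below the other 4. In the gained direction, 130 strong TFE3 peaks (0.274%), 3099 TAZ-CAMTA1 peaks (4.14%), 3622 CAMTA1 peaks (4.92%), 6128 YAP-TFE3 peaks (7.62%) and 7282 YAP5SA peaks (10.5%) had no EV peak within 1 kb, against the 1870 TAZ4SA peaks (4.20%). Of the strong TAZ4SA peaks, 150 (0.337%) had no YAP5SA peak within 1 kb, 419 (0.942%) no CAMTA1 peak, 758 (1.70%) no YAP-TFE3 peak, 1224 (2.75%) no TAZ-CAMTA1 peak and 1552 (3.49%) no TFE3 peak, so that the list they lacked least was YAP5SA and the list they lacked most was EV.

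Gained and lost peaks were spread over all chromosomes, in different proportions. The share of strong TAZ4SA peaks that were gained was lowest on chromosome 19 (13 peaks, 0.848%), followed by chromosomes 22 (1.58%), 21 (1.77%) and 17 (2.02%), and highest on chromosomes 18 (8.15%), 4 (6.84%) and 3 (5.96%). The share of strong EV peaks that were lost was lowest on chromosomes 9 (2.65%) and 2 (3.11%) and was 7.02% on chromosome 21 and 7.01% on chromosome 22. Lost peaks numbered 6.77 times the gained ones on chromosome 19, 5.55 times on chromosome 22, 4.63 times on chromosome 21 and 3.17 times on chromosome 17. The ratio was 0.559 on chromosome 2 and 0.575 on chromosome 9. For all strong peaks, EV over TAZ4SA, the ratios were 1.22, 1.25, 1.16, 1.17, 0.929 and 0.982 in the same order. On chromosome 19 the lost share, 4.72%, was near the 4.53% of all strong EV peaks, whereas the gained share was the lowest. The median log2 area ratio of shared sites ran from −0.34 on chromosome 2 to −0.81 on chromosome 22, with −0.72 on chromosome 19, and over the 23 chromosomes its correlation with the log2 ratio of lost to gained was −0.92 (Pearson) and −0.94 (Spearman). Both measures come from the same 2 lists, and the chromosomes share libraries and depth.

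Strong peaks in sparse regions were gained more often. Bins of 1 Mb were ordered by the mean number of strong peaks in the 5 reference lists. The share of strong TAZ4SA peaks that were gained was 13.1% (11.9 to 14.4) in bins with fewer than 10 such peaks, 7.31% at 10 to 20, 5.66% at 20 to 30, 3.38% at 30 to 50 and 1.71% (1.52 to 1.93) at 50 or more. The lost share moved less and in no single direction, at 3.16, 4.47, 4.65, 5.23 and 4.08%. Bins denser in reference peaks also held more EV peaks, with 17886 strong ones in the 382 densest bins and 2059 in the 726 sparsest. Strong TAZ4SA peaks numbered 15576 in the densest bins and 2620 in the sparsest. A TAZ4SA peak within 1 kb of an EV peak cannot be gained, and an EV peak within 1 kb of a TAZ4SA peak cannot be lost. Summit values were not held fixed across the bins. The part of the rule or of summit values in the fall of the gained share was not tested. The median log2 area ratio of shared sites fell over the same bins, from −0.30 to −0.62. Within 500000 bp of a peak, the mean number of strong reference peaks had a median of 25 for gained peaks, 42.2 for lost peaks and 42.4 and 43.6 for the strong shared peaks of TAZ4SA and EV. By this measure gained peaks lay in sparser surroundings than strong shared peaks, and the median of lost peaks was close to that of shared ones. The measure also counts strong counterparts of the peak itself, and gained peaks had a counterpart less often in each reference list.

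**Figure D5:**
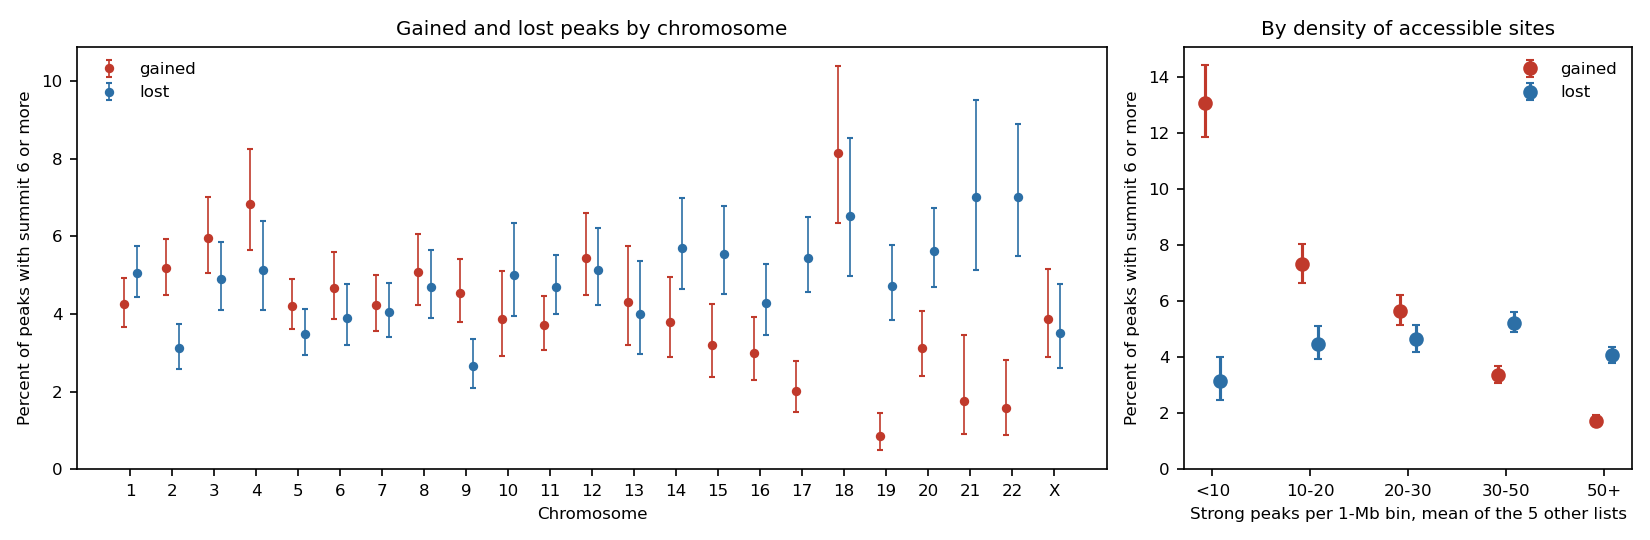
Percent of strong peaks that were gained or lost on each chromosome, and in 1-Mb bins ordered by strong peaks of the 5 reference lists, with 95% Wilson intervals. The gained share falls from 13.1% in the sparsest bins to 1.71% in the densest, and is lowest on chromosome 19 (0.848%).

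Gained and lost peaks lay farther from the nearest other peak of their set than strong shared peaks did. The sets differed in size, with 1870 gained and 2123 lost peaks against 41968 and 43503 strong shared ones. Another peak of the same set lay within 10000 bp of 17.3% of gained and 9.84% of lost peaks, against 57.2 and 55.2% of strong shared TAZ4SA and EV peaks. Within 100000 bp gained and lost peaks were level, at 35.4 and 35.6%. The median distance was 252461 bp for gained, 197000 bp for lost, and 6876 and 7989 bp for the shared peaks. Counted against 1 and the same set, the order was the other way. Another gained peak lay within 50000 bp of 28.6% of gained peaks, and a gained peak did so for 7.79% of strong shared TAZ4SA peaks. Another lost peak lay within 50000 bp of 23.5% of lost peaks, and a lost peak did so for 13.6% of strong shared EV peaks. A lost peak lay within 50000 bp of 5.83% of gained peaks and of 12.4% of strong shared TAZ4SA peaks. Gained peaks also had fewer strong reference peaks of any kind in that window, with a median of 2.8 against 5.8. These counts include counterparts of the peak itself. From the other side, 5.37% of lost peaks and 6.87% of strong shared EV peaks had a gained peak within 50000 bp. Of the 1151 1-Mb bins with a gained peak, 511 also held a lost one, a share close to the 1136 of all 2628 bins. That comparison takes no account of how many strong peaks a bin held. Within 500000 bp, a lost peak lay near 43.8% of gained peaks and 61.2% of strong shared TAZ4SA peaks. Gained peaks had fewer strong reference peaks in that window too, with medians of 25 and 42.4. Whether the gained and lost sets were separated was not tested. The largest group was on chromosome 18 between 76 and 77 Mb, where 22 of the 39 strong TAZ4SA peaks were gained and none of the EV peaks was lost. This bin held 37 strong peaks in YAP5SA and 6 in EV, 6 in CAMTA1, 3 in TFE3, 4 in TAZ-CAMTA1 and 7 in YAP-TFE3. Of the 22 gained peaks 18 had a counterpart in YAP5SA, 8 in YAP-TFE3, 7 in CAMTA1, 1 in TFE3 and 0 in TAZ-CAMTA1, and the gained peak with no counterpart outside YAP5SA described above was among them. A second group, on chromosome 1 between 240 and 241 Mb, had 13 gained peaks among 22 strong TAZ4SA peaks, with 3 strong peaks in EV and 23 in YAP5SA, and 10 of the 13 had a YAP5SA counterpart. On the lost side the largest group, on chromosome 20 between 51 and 52 Mb, had 9 lost peaks among 29 strong EV peaks and 14 strong TAZ4SA peaks.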

How the data were processed

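ATAC-seq libraries of 7 vectors in SW872 cells, 20 in all, were grouped by the labels. Per the study's methods, the authors trimmed reads with NGmerge, aligned them to GRCh37/hg19 with BWA-MEM and called peaks with Genrich in its ATAC-seq mode, removing PCR duplicates, blacklisted regions and the mitochondrial genome. The submitters' processing notes instead name the mouse build mm8 and Bowtie 0.12.2, although the samples are human and the contigs carry GRCh37 names. GRCh38 could not be used for coordinates, since chromosome 10 peaks ran to 135524797, past its 133797422 bp there. Calling is described per replicate, but 1 list per vector was analysed, and how libraries were combined is not given in the sources used here. The deposited signal of a peak is the area under its −log10 p curve, at least 20.0 in every list. The deposited −log10 p is that at the summit, and −log10 q values were not used. The deposited score is the capped area per bp and was not used. Depth per library is unknown.

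Overlaps and distances were computed with Python 3.11.15, numpy 2.4.6 and pandas 2.3.3, and tested on simulated peaks, where the distances were also compared with bedtools 2.31.1. The confidence level was 95%. The named peaks were the 8 of largest area in each set. The members and lists were chosen with earlier results of these data known. The study's own differential test used read counts per library, which were not analysed here. Genes, promoters, motifs and sequences were left out, since the reference used here is of another build.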

Additional observations from a re-analysis of the deposited data

How the results depend on the processing

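No paired analysis was possible because each vector had 1 peak list with no values per library, and leaving out each library, a replicate block and the motif and promoter settings were not run for want of such values or of a genome of this build. Of 112 alternative values, 50 did not move, 20 of 64 for the main counts and shares and 30 of 48 for the others. The cause of the moves below was not tested, beyond the construction of each setting. With a summit minimum of 5 there were 5497 gained and 7554 lost peaks (log2 of lost over gained 0.46, against 0.18 as reported), and with 8 there were 253 and 113 (−1.16, reversed). Without the 1 kb margin 3342 peaks were lost (0.40), with a margin of 5 kb 1173 (−0.11, reversed), and with equal numbers of peaks the log2 ratio was 0.0041, so which set is the larger depends on these settings.

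The shared share of TAZ4SA and EV peaks was 33.4 and 29.8% where the overlap had to cover 50% of each peak, 66.4 and 59.7% with windows around the summit, 94.3 and 92.9% among strong peaks and 64.2 and 54.2% with equal numbers. Gained peaks had a peak within 1 kb in YAP5SA for 95.6%, CAMTA1 82.6%, TFE3 51.9%, TAZ-CAMTA1 55.3% and YAP-TFE3 74.3%. With equal numbers in all lists, where 2117 peaks were gained, the shares that overlapped were 91.5, 70.3, 51.1, 38.0 and 60.6%. With a summit of 8 or more, where 253 were gained, they were 100, 90.9, 56.9, 47.8 and 72.7%. For lost peaks in YAP5SA the values were 90.9, 80.6 and 92.9%. With equal numbers lost peaks were found for 97.97% in CAMTA1, 99.5% in TAZ-CAMTA1 and 97.1% in YAP-TFE3, and with a summit of 8 or more for 100% in CAMTA1, TFE3, TAZ-CAMTA1 and YAP-TFE3. YAP5SA had the highest share of gained and the lowest share of lost peaks under each of these 3 settings.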
